A study of Homo sapiens with 9 samples.

Results

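The genes described here are 6 members of the interleukin-10 and interleukin-12 families, IL10, IL12B, IL23A, EBI3, IL10RA and IL10RB, taken by symbol from a table of 30000 rows. All 6 were found, and 5 had enough reads to be tested, IL10 being the exception. The cells were THP-1, an established human monocytic leukaemia line. In 3 libraries they had received ectosomes labelled PKM2_KD, in 3 others ectosomes labelled Scramble, and the remaining 3 were the controls, labelled Ctrl. Ectosomes are vesicles shed from the plasma membrane, here those of Huh7 hepatoma cells per the series title, and the shRNA label was read as that of the Huh7 cells. PKM2 is an isoform of pyruvate kinase. The shRNA field of the controls reads Ctrl, and no agent is named for them. The sources used here give no dose, incubation time or mock treatment. They also do not say that replicates came from separate cultures, so p-values measure only how these libraries spread, which may be technical.

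Interleukin-10 is a dimer that restrains inflammatory gene expression in monocytes and macrophages through a receptor of IL10RA, which is particular to it, and IL10RB, which is shared with interleukin-22, interleukin-26 and the lambda interferons. The cytokines of the interleukin-12 family are heterodimers that share subunits. IL12B encodes p40, which pairs with the IL12A product p35 to form interleukin-12 and with the IL23A product p19 to form interleukin-23. EBI3 pairs with the IL27 product to form interleukin-27 and with p35 to form interleukin-35. A secreted heterodimer of this family needs both of its chains, so the transcripts of partner chains are set side by side below.

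The 250 bases before the RefSeq start of 4 ligand genes are shown, because IL23A, EBI3 and IL12B were all higher with ectosomes while IL10 stayed near the limit of detection. RefSeq windows (GRCh38.p14) existed for 6 of the 6 genes. Capitals mark matches, on either strand, to the NF-kB consensus (by name), to TGANTCA (AP-1) and to TATAAA. No marked motifs overlap in these windows.
IL23A: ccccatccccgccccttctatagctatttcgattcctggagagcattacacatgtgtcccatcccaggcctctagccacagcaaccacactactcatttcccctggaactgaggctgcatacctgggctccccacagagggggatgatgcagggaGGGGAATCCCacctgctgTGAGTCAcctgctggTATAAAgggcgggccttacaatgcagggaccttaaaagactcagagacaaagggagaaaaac
EBI3: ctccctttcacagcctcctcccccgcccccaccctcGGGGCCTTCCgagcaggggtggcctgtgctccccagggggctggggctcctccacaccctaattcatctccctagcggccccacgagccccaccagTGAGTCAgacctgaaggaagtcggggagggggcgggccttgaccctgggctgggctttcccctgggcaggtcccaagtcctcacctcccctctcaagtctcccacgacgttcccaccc
IL12B: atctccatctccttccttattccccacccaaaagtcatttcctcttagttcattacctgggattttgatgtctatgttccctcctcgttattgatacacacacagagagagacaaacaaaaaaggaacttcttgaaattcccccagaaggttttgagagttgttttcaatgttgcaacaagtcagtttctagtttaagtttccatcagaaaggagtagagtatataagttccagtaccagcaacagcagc
IL10: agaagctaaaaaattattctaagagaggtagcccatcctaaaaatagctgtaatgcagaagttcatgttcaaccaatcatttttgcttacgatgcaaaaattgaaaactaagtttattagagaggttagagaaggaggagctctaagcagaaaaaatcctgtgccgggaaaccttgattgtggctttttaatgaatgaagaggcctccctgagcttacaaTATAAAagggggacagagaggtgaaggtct

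The IL23A window (chr12:56338634-56338883, plus strand) held an NF-kB match at -95 to -86, an AP-1 match at -77 to -71 and TATAAA at -62 to -57, counted from the start. The EBI3 window (chr19:4229273-4229522, plus strand) held an NF-kB match at -214 to -205 and an AP-1 match at -118 to -112. The IL12B window (chr5:159330488-159330737, minus strand) held no match to any of the 6 motifs searched, these and TTGCNNAA (C/EBP), the motif of interferon regulatory factors and TTCNNNGAA (STAT factors). The IL10 window (chr1:206772495-206772744, minus strand) is the one of its 3 windows that starts at the gene start of GENCODE. It held TATAAA at -30 to -25, while another of the 3 held an AP-1 match. By the GENCODE gene spans given below, the IL23A, IL12B and IL10RA windows lie wholly inside their genes, and the EBI3 and IL10RB windows partly. Of the receptor genes, whose windows are not shown, IL10RA held an AP-1 match at -73 to -67 and a TTGCNNAA match at -197 to -190. The IL10RB window held no match. Over all 35116 RefSeq windows of this length, 9.96% held the NF-kB consensus, 6.57% TGANTCA, 9.05% TTGCNNAA and 10.7% TATAAA. The motif of interferon regulatory factors, held by 3.02% of all windows, and TTCNNNGAA, held by 6.57%, were found in no window of the 6 genes. The motifs were chosen after these sequences had been read. A match is a description of letters, not a binding site.

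The controls were not alike. Control replicate 3 had 995 tested rows at least 2-fold below, and 234 at least 2-fold above, the mean of control replicates 1 and 2 (pseudocount 0.5 CPM), while control replicates 1 and 2 were at least 2-fold apart in 69 rows. All 6 genes were lowest among the controls in that library. EBI3 was 24.7-fold, IL23A 3.90-fold, IL12B 2.57-fold, IL10RB 1.79-fold and IL10RA 1.59-fold lower there than the mean of the other controls. Where leaving out that library changed a call, values without it are given for the 6 genes, the named genes of the lists and the list counts given. They are not given for genes named only by likeness. Scaling by library totals alone moved the median log2 fold change of all rows by -0.20 for scramble ectosomes against control, 0.17 for PKM2-knockdown against scramble ectosomes and -0.03 for PKM2-knockdown ectosomes against control. The marker genes of monocytic cells were all present (8 of 8), with summed levels of 1192 to 1364 CPM with PKM2-knockdown ectosomes, 660 to 723 CPM with scramble ectosomes and 640 to 839 CPM in controls. Of the 8, 4 were higher and 2 lower with PKM2-knockdown ectosomes than in controls (6 and 2 without control replicate 3). With scramble ectosomes 2 were higher and 5 lower than in controls (again 2 and 5 without control replicate 3). Of all tested rows 27% were higher and 26.7% lower with PKM2-knockdown ectosomes, and 34.6% and 33.2% with scramble ectosomes. Without control replicate 3 these shares were 29.1% and 28.6%, and 36.9% and 34.7%. SPI1, a myeloid transcription factor, made up much of the sums, at 561, 494 and 252 CPM with PKM2-knockdown ectosomes, scramble ectosomes and in controls. SPI1 did not pass the threshold between the ectosomes (log2 fold change 0.18, edgeR adjusted p = 0.174). It did pass without control replicate 3 (edgeR adjusted p = 0.0295), with library totals (0.0166) and with the 2 groups fitted alone (0.00952). CSF1R, another of the 8, averaged 351, 85.0 and 35.5 CPM in the same order. LYZ, the lysozyme gene, averaged 39.9, 17.6 and 203 CPM in that order, with a log2 fold change of -3.52 for scramble ectosomes against control (-2.92 without control replicate 3). Between the ectosomes 31.4% of all tested rows were higher with the knockdown and 30.3% lower (36.1% and 35.4% without control replicate 3). Of the 8 markers 7 were higher with the knockdown, and 8 without control replicate 3. CD14, which encodes the co-receptor for lipopolysaccharide, was among them at 92.2 CPM with PKM2-knockdown against 6.21 CPM with scramble ectosomes. Of 12 hepatocyte transcripts 7 had a row among the 30000. They summed to 41.3 to 47.9 CPM with PKM2-knockdown ectosomes, 6.23 to 7.21 CPM with scramble ectosomes and 3.37 to 8.09 CPM in controls. Most of the first range was SERPINA1, a gene that monocytes also express, at 37.4 CPM. Of the 4 tested, 2 were higher and 0 lower with the knockdown than with scramble ectosomes. Against control 2 were higher and 1 lower with PKM2-knockdown, and 0 and 1 with scramble ectosomes. APOA2 averaged 4.82, 2.28 and 1.76 CPM with PKM2-knockdown ectosomes, scramble ectosomes and in controls. APOA1 had 5, 16 and 40 reads and TF 49, 21 and 51 reads over the same groups. ALB, the albumin gene, had 27, 7 and 7 reads over the libraries of these groups. TTR and HNF4A had 0 reads with PKM2-knockdown ectosomes and in controls, and 7 and 10 reads with scramble ectosomes. Without control replicate 3 TF was called higher with the knockdown than with scramble ectosomes (edgeR adjusted p = 0.0348, and 0.0669 in the main fit). APOA1 then lost its call as lower with scramble ectosomes than in controls (edgeR adjusted p = 0.0619, and 0.0288 in the main fit). The part of these markers in the results below was not tested. In bulk libraries a change in the share of cells and a change in RNA per cell cannot be told apart.

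**Figure D1:**
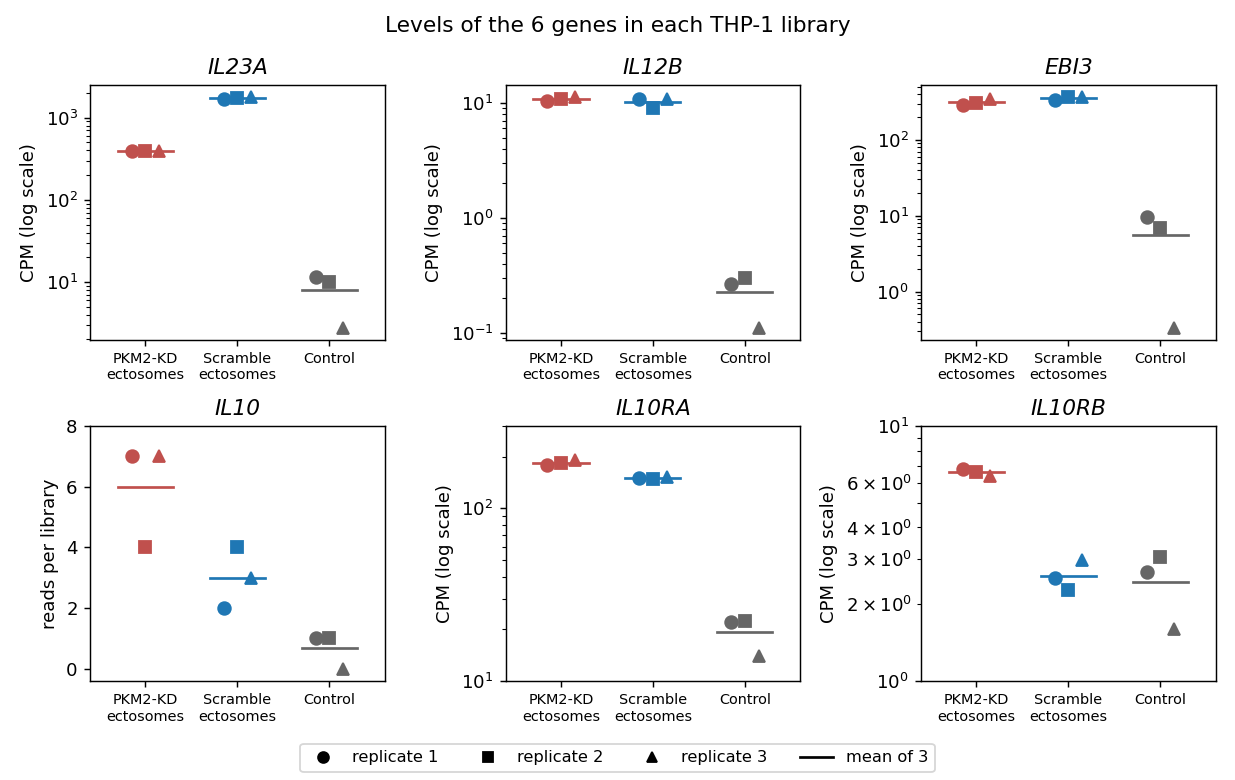
Level of each gene in each library: CPM on a log axis for 5 genes and reads per library on a linear axis for IL10. Points are libraries and bars are means of 3. IL23A, IL12B, EBI3 and IL10RA stand above all controls with both ectosomes, IL10RB only with PKM2-knockdown ectosomes, and control replicate 3 is the lowest point in each panel.

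Both ectosome preparations were accompanied by far higher transcript levels of the subunit genes IL23A, EBI3 and IL12B. IL23A was the most abundant per length and the only one of these whose difference between the preparations passed the test, being 4.45-fold lower with the knockdown. IL10RA rose with both, IL10RB rose with PKM2-knockdown ectosomes, and IL10 itself had 0 to 7 reads per library.

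IL23A encodes p19, the chain that is particular to interleukin-23, a cytokine that sustains interleukin-17 producing lymphocytes. The gene (ENSG00000110944.8) lies on chromosome 12 from 56334174 to 56340410 on the plus strand (GRCh38), and no exon base of it is shared with another GENCODE gene. It had 390, 392 and 389 CPM with PKM2-knockdown ectosomes, 1668, 1737 and 1804 CPM with scramble ectosomes, and 11.5, 10.03 and 2.76 CPM in controls. The 3 groups were fully separated, scramble ectosomes being highest and controls lowest. Groups that do not overlap were common, at 74.5% of all tested rows between the ectosomes, 60.5% for PKM2-knockdown ectosomes against control and 71.3% for scramble ectosomes against control. The means were 391 ± 1.71 CPM, 1736 ± 68.1 CPM and 8.10 ± 4.68 CPM (SD, n = 3 each).

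With scramble ectosomes IL23A was 213-fold above control (log2 fold change 7.73, SE 0.41, edgeR quasi-likelihood adjusted p = 5.91e-08). That fold ranked 41 from the top among the 18437 rows tested. With PKM2-knockdown ectosomes it was 47.9-fold above control (log2 fold change 5.58, SE 0.38, edgeR adjusted p = 9.41e-07). Between the ectosomes it fell by 2.15 on the log2 scale (SE 0.31, edgeR adjusted p = 0.000154), and 2.41% of rows had a log2 fold change as low or lower. Leaving out any single library gave log2 fold changes from -2.19 to -2.13 for this difference. These 3 comparisons share groups and are not independent of each other.

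IL12B encodes p40, the chain common to interleukin-12 and interleukin-23. The gene (ENSG00000113302.4) lies on chromosome 5 from 159314783 to 159330887 on the minus strand. It had 10.3, 10.8 and 11.4 CPM with PKM2-knockdown ectosomes, 10.7, 8.95 and 10.8 CPM with scramble ectosomes, and 0.266, 0.301 and 0.110 CPM in controls. The ectosome groups overlapped each other, and both lay above all controls. The control values rest on 5, 7 and 2 reads, so the folds against control carry a large counting error.

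IL12B rose 45.5-fold over control with PKM2-knockdown ectosomes (5.51 on the log2 scale, SE 0.23, edgeR adjusted p = 3.96e-08) and 42.7-fold with scramble ectosomes (5.42 on the log2 scale, SE 0.24, edgeR adjusted p = 1.55e-08). The difference between the ectosomes was 0.09 on the log2 scale (SE 0.15, edgeR adjusted p = 0.606) and did not pass the threshold, at 10.8 ± 0.535 CPM with PKM2-knockdown and 10.2 ± 1.05 CPM with scramble ectosomes (SD, n = 3 each).

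Set side by side per length, p19 transcripts far outnumbered p40 transcripts. RPKM, which divides the CPM by the exon length in kilobases, was 329 ± 1.44 for IL23A and 3.93 ± 0.194 for IL12B with PKM2-knockdown ectosomes. With scramble ectosomes it was 1463 ± 57.3 for IL23A and 3.68 ± 0.379 for IL12B. The ratio of IL23A to IL12B within a library does not depend on how libraries are scaled. It was 88.1, 84.3 and 79.5 with PKM2-knockdown ectosomes, 361, 451 and 389 with scramble ectosomes, and 100.5, 77.4 and 58.2 in controls. The ratio was higher in each scramble-ectosome library than in any other library, and the PKM2-knockdown and control ranges overlapped. The ratio was chosen after its values were seen and was not tested.

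The other partner of p40 was scarce. IL12A, which encodes p35, had 6, 2 and 3 reads with PKM2-knockdown ectosomes, 14, 8 and 8 reads with scramble ectosomes, and 3, 7 and 9 reads in controls, too few to be tested. The scramble and control libraries overlapped, as did the PKM2-knockdown and control libraries. By summed reads the level with PKM2-knockdown over that with scramble ectosomes was 0.374 (exact 95% interval 0.169 to 0.768), an interval that covers counting error only. With no filter, edgeR gave this difference a log2 fold change of -1.35 (edgeR adjusted p = 0.0699), which did not pass the threshold.

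EBI3 encodes a soluble chain that resembles a cytokine receptor and takes part in interleukin-27 and interleukin-35. The gene (ENSG00000105246.5) lies on chromosome 19 from 4229498 to 4237531 on the plus strand. It had 287, 307 and 347 CPM with PKM2-knockdown ectosomes, 339, 366 and 372 CPM with scramble ectosomes, and 9.59, 6.80 and 0.331 CPM in controls. The ectosome groups overlapped by 1 library of each, and all ectosome libraries lay far above the controls. The lowest control value, 6 reads, was that of control replicate 3.

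EBI3 rose 55.6-fold over control with PKM2-knockdown ectosomes (5.80 on the log2 scale, SE 0.59, edgeR adjusted p = 1.75e-05) and 63.7-fold with scramble ectosomes (5.99 on the log2 scale, SE 0.60, edgeR adjusted p = 6.45e-06). Without control replicate 3 these log2 fold changes were 5.27 with PKM2-knockdown and 5.47 with scramble ectosomes. Between the ectosomes the log2 fold change was -0.20 (SE 0.46, edgeR adjusted p = 0.732), at 314 ± 30.3 CPM with PKM2-knockdown and 359 ± 18.0 CPM with scramble ectosomes (SD, n = 3 each). Without control replicate 3 the same difference was -0.20 with an SE of 0.07 and an edgeR adjusted p of 0.0242, and over the alternatives tried the adjusted p ran from 0.0179 to 0.971.

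The IL27 gene, whose product pairs with EBI3, had few reads in all groups. It had 17, 8 and 10 reads with PKM2-knockdown ectosomes, 17, 2 and 13 reads with scramble ectosomes and 3, 6 and 7 reads in controls. No comparison of IL27 passed the threshold (edgeR adjusted p = 0.796 between the ectosomes, 0.157 for PKM2-knockdown ectosomes against control and 0.211 for scramble ectosomes against control). Without scramble replicate 2 the last of these passed (log2 fold change 1.37, edgeR adjusted p = 0.0328). Per length, EBI3 exceeded IL27 by 340- to 810-fold with PKM2-knockdown ectosomes and 437- to 3439-fold with scramble ectosomes, and the ratio was 0.848 to 59.3 in controls.

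IL10 had 7, 4 and 7 reads with PKM2-knockdown ectosomes, 2, 4 and 3 reads with scramble ectosomes, and 1, 1 and 0 reads in controls. The gene (ENSG00000136634.6) lies on chromosome 1 from 206767602 to 206772494 on the minus strand. Its reads summed to 18, 9 and 2 over these groups, or 0.296 CPM (exact 95% Poisson interval 0.176 to 0.468), 0.145 CPM (0.0664 to 0.275) and 0.0333 CPM (0.00403 to 0.120), intervals that cover counting error only. The 0 in control replicate 3 allows a level of up to 0.166 CPM. The ectosome groups met at 4 reads, and each ectosome library had more IL10 reads than any control library.

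The row was removed by the filter on low counts. With no filter, edgeR gave IL10 a log2 fold change of 2.93 with PKM2-knockdown ectosomes against control (SE 0.83, adjusted p = 0.0125 over 30000 rows), while the ratio of the summed CPM was 8.90 (95% interval 2.13 to 79.1). For PKM2-knockdown against scramble ectosomes the ratio was 2.04 (95% interval 0.871 to 5.16; log2 fold change 1.02, edgeR adjusted p = 0.226). For scramble ectosomes against control it was 4.36 (95% interval 0.903 to 41.5; log2 fold change 1.91, edgeR adjusted p = 0.107). Per length, IL10 was the lowest of the 6 genes in each group, at 0.139, 0.0688 and 0.0149 RPKM with PKM2-knockdown ectosomes, scramble ectosomes and in controls.

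IL10RA encodes the ligand-binding chain of the interleukin-10 receptor. The gene (ENSG00000110324.10) lies on chromosome 11 from 117986348 to 118003037 on the plus strand. It had 179, 183 and 190 CPM with PKM2-knockdown ectosomes, 151, 148 and 152 CPM with scramble ectosomes, and 21.9, 22.1 and 13.9 CPM in controls. All PKM2-knockdown libraries lay above all scramble libraries, and these above all controls.

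IL10RA rose 9.52-fold over control with PKM2-knockdown ectosomes (3.25 on the log2 scale, SE 0.15, edgeR adjusted p = 8.10e-08) and 7.77-fold with scramble ectosomes (2.96 on the log2 scale, SE 0.15, edgeR adjusted p = 4.28e-08). The difference between the ectosomes, 184 ± 5.75 CPM with PKM2-knockdown against 150 ± 1.64 CPM with scramble, was a log2 fold change of 0.29 (SE 0.14, edgeR adjusted p = 0.0856) and missed the threshold. It passed without control replicate 3 (edgeR adjusted p = 4.67e-05) and where library totals replaced TMM (edgeR adjusted p = 0.0192), and over the alternatives tried the adjusted p ran from 2.33e-05 to 0.184.

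IL10RB encodes the accessory chain of the receptor. The gene (ENSG00000243646.9) lies on chromosome 21 from 33266358 to 33310187 on the plus strand. It had 6.77, 6.61 and 6.40 CPM with PKM2-knockdown ectosomes, 2.53, 2.26 and 2.97 CPM with scramble ectosomes, and 2.66, 3.06 and 1.60 CPM in controls. The PKM2-knockdown libraries stood above all others, while scramble and control libraries overlapped. It rose 2.54-fold with PKM2-knockdown against scramble ectosomes (log2 fold change 1.35, SE 0.22, edgeR adjusted p = 0.000295) and 2.67-fold against control (log2 fold change 1.42, SE 0.22, edgeR adjusted p = 0.000278). For scramble ectosomes against control the log2 fold change was 0.07 (SE 0.23, edgeR adjusted p = 0.790).

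The level of IL10RB is uncertain. In GENCODE release 29, 38.1% of its exon bases are shared on the same strand with AP000295.1, a gene model now named IFNAR2-IL10RB that joins it to the neighbouring interferon receptor gene IFNAR2. Whether the authors' annotation held that model, and so how reads on the shared bases were counted, is not given in the sources used here. Within a library, the per-length ratio of IL10RA to IL10RB was 14.8, 15.5 and 16.7 with PKM2-knockdown ectosomes, 33.4, 36.8 and 28.7 with scramble ectosomes, and 4.61, 4.06 and 4.86 in controls. The ratio was highest with scramble ectosomes and lowest in controls with no overlap, and like that of the interleukin-23 chains it was chosen after its values were seen.

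**Figure D2:**
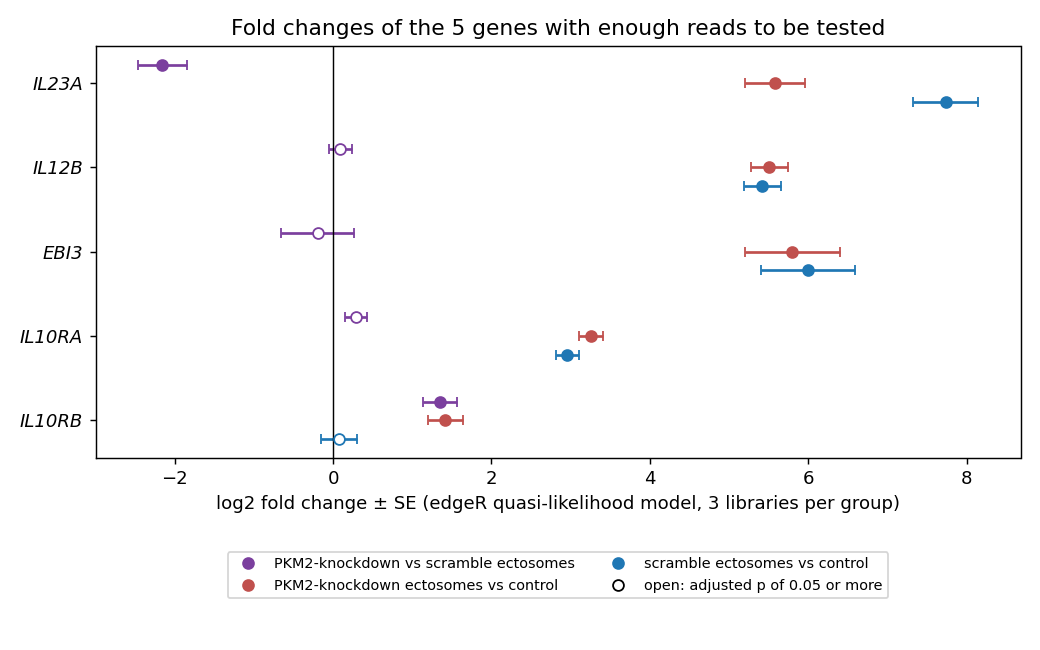
Log2 fold changes with SE for the 5 tested genes in 3 comparisons, 3 libraries per group; open circles have an adjusted p of 0.05 or more. Between the ectosomes the filled points are IL23A (-2.15) and IL10RB (1.35), and IL23A, IL12B, EBI3 and IL10RA lie at 2.96 or more against control with both ectosomes.

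Of the 5 tested genes 5 were higher and 0 lower with PKM2-knockdown ectosomes than in controls, where 53.7% of all tested rows passed the test, 27% higher and 26.7% lower. With scramble ectosomes 4 of 5 were higher and 0 lower than in controls, where 67.8% of all rows passed, 34.6% higher and 33.2% lower. Between the ectosomes 1 was higher and 1 lower with the knockdown, where 61.6% of all rows passed, 31.4% higher and 30.3% lower. The median log2 fold change of the 5 was 5.51 for PKM2-knockdown ectosomes against control, 5.42 for scramble ectosomes against control and 0.09 between the ectosomes, and that of all tested rows -0.01, -0.01 and 0.03. The comparisons with control share the control libraries.

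**Figure D3:**
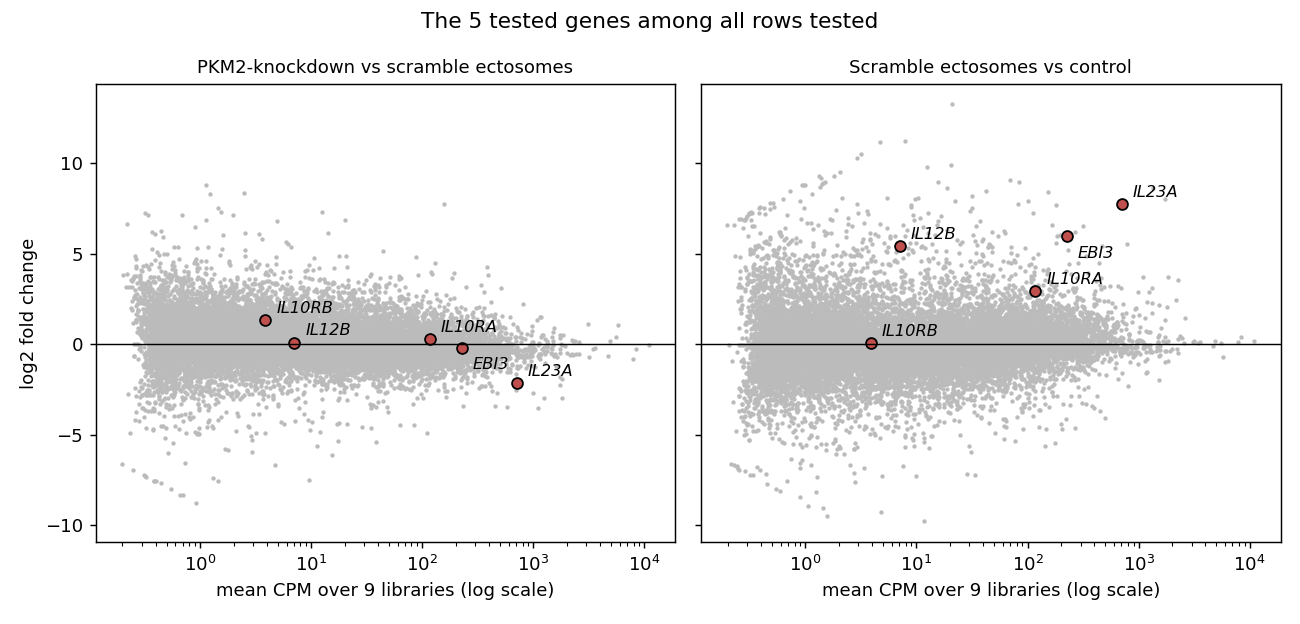
Log2 fold change against mean CPM over the 9 libraries (log axis) for the 18437 rows tested, with the 5 genes in red. IL12B, EBI3 and IL10RA lie in the middle of the cloud for PKM2-knockdown against scramble ectosomes, where IL23A lies at -2.15, and at 2.96 to 7.73 together with IL23A for scramble ectosomes against control.

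The order of the 6 genes per length was the same with both ectosomes: IL23A, EBI3, IL10RA, IL12B, IL10RB and IL10. No neighbours in that order overlapped between libraries of a group. The narrowest step was that from IL23A to EBI3 with PKM2-knockdown ectosomes, 1.35-fold, where it was 5.23-fold with scramble ectosomes. In controls the order was IL23A, EBI3, IL10RA, IL10RB, IL12B and IL10, and the libraries of IL23A and EBI3, and of EBI3 and IL10RA, overlapped. The control values were 6.82 ± 3.94 RPKM for IL23A, 4.34 ± 3.70 RPKM for EBI3 and 2.38 ± 0.580 RPKM for IL10RA (SD, n = 3 each).

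The genes most like each of the 5 over the 9 libraries were found by Pearson's r of log2 CPM among 10027 genes with a mean of at least 5 CPM. For IL23A they were ACVR1C, NFKB1 and MAMLD1 (r = 0.999 for each), all with scramble ectosomes highest. NFKB1, which encodes an NF-kB subunit, had 265 CPM with PKM2-knockdown ectosomes, 461 CPM with scramble ectosomes and 62.01 CPM in controls. For EBI3 they were BCL3, JUN and SLC37A2 (r of at least 0.999), BCL3 encoding a nuclear regulator of NF-kB with 148, 163 and 14.8 CPM in the same order. For IL12B they were GPAT4, FMNL3 and GPR132, and for IL10RA TNFRSF1B, CCL20 and FMNL3 (r from 0.998 to 0.999). For IL10RB they were STAT2, DCHS1 and RGS2 (r from 0.989 to 0.993), STAT2 having 348, 151 and 143 CPM in the same order. These correlations are descriptions over libraries that fall into 3 groups and share the low control replicate 3.

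Other ligands and receptors of the interleukin-10 family were few. Of 14 listed, IL24, IL20RB and IFNL1 had reads, the others not being analysed here. IL24, a cytokine gene that lies in the same cluster as IL10 on chromosome 1, had 20, 13 and 20 reads with PKM2-knockdown ectosomes, 58, 49 and 56 with scramble ectosomes and 2, 4 and 1 in controls, with no overlap between groups. It was 2.99-fold lower with PKM2-knockdown than with scramble ectosomes (log2 fold change -1.58, edgeR adjusted p = 0.000359), 7.22-fold above control with the knockdown (edgeR adjusted p = 0.000205) and 21.6-fold above control with scramble ectosomes (edgeR adjusted p = 1.43e-06). IL20RB, a receptor chain for interleukins 19, 20 and 24, averaged 2.74 CPM with PKM2-knockdown ectosomes, 4.01 CPM with scramble ectosomes and 1.72 to 2.29 CPM in controls. Its difference between ectosomes (edgeR adjusted p = 0.0141) was lost without PKM2-knockdown replicate 3 (edgeR adjusted p = 0.0509) and with library totals (edgeR adjusted p = 0.0678), and its rise with PKM2-knockdown ectosomes over control (edgeR adjusted p = 0.0457) was lost under most alternatives, control replicate 3 left out among them (edgeR adjusted p = 0.0614). IFNL1, a lambda interferon gene, had 12, 14 and 3 reads over the libraries of the 3 groups and was not tested.

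Receptor chains of the interleukin-12 family moved in different ways. Of 7 listed ligand and receptor genes 6 were tested: with scramble ectosomes 2 rose and 0 fell against control (median log2 fold change 0.53, against -0.01 for all tested rows, of which 34.6% rose and 33.2% fell), and with PKM2-knockdown against scramble ectosomes 0 rose and 3 fell (median -0.54, against 0.03 for all tested rows, of which 31.4% rose and 30.3% fell). With PKM2-knockdown ectosomes against control 1 rose and 1 fell (median -0.005, against -0.01 for all tested rows, of which 27% rose and 26.7% fell). Without control replicate 3 a further gene, IL23R, was called lower against control. The counts were then 2 and 1 with scramble and 1 and 2 with PKM2-knockdown ectosomes. Of all rows tested, 36.9% then rose and 34.7% fell with scramble ectosomes, and 29.1% and 28.6% with PKM2-knockdown ectosomes. IL27RA, the receptor chain particular to interleukin-27, had 20.5, 22.9 and 21.97 CPM with PKM2-knockdown ectosomes, 52.4, 52.8 and 52.5 CPM with scramble ectosomes and 15.7, 12.4 and 6.68 CPM in controls. The groups did not overlap, and it was 2.41-fold lower with the knockdown than with scramble ectosomes (edgeR adjusted p = 0.000406).

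IL6ST, encoding gp130, the signalling chain that interleukin-27 shares with interleukin-6, had 33.5 to 38.1 CPM with PKM2-knockdown ectosomes, 77.1 to 86.1 CPM with scramble ectosomes and 32.8 to 40.96 CPM in controls. Scramble libraries stood above all others (edgeR adjusted p = 2.51e-06 between the ectosomes and 1.82e-06 for scramble ectosomes against control), while PKM2-knockdown and control libraries overlapped (edgeR adjusted p = 0.766). IL12RB2, the signalling chain of the interleukin-12 receptor, averaged 10.5 CPM with PKM2-knockdown ectosomes, 20.1 CPM with scramble ectosomes and 21.3 CPM in controls, being 1.90-fold lower with the knockdown than with scramble ectosomes (edgeR adjusted p = 2.26e-05). IL12RB1, the chain common to the receptors of interleukins 12 and 23, averaged 9.90, 10.7 and 9.68 CPM in the same order and passed the threshold in no comparison. The same held for IL23R, the chain particular to interleukin-23, at 1.05, 1.17 and 1.36 CPM, although without control replicate 3 it was lower than control with both ectosomes (log2 fold change -0.82, edgeR adjusted p = 0.0258 with PKM2-knockdown and -0.68, edgeR adjusted p = 0.0479 with scramble ectosomes).

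**Figure D4:**
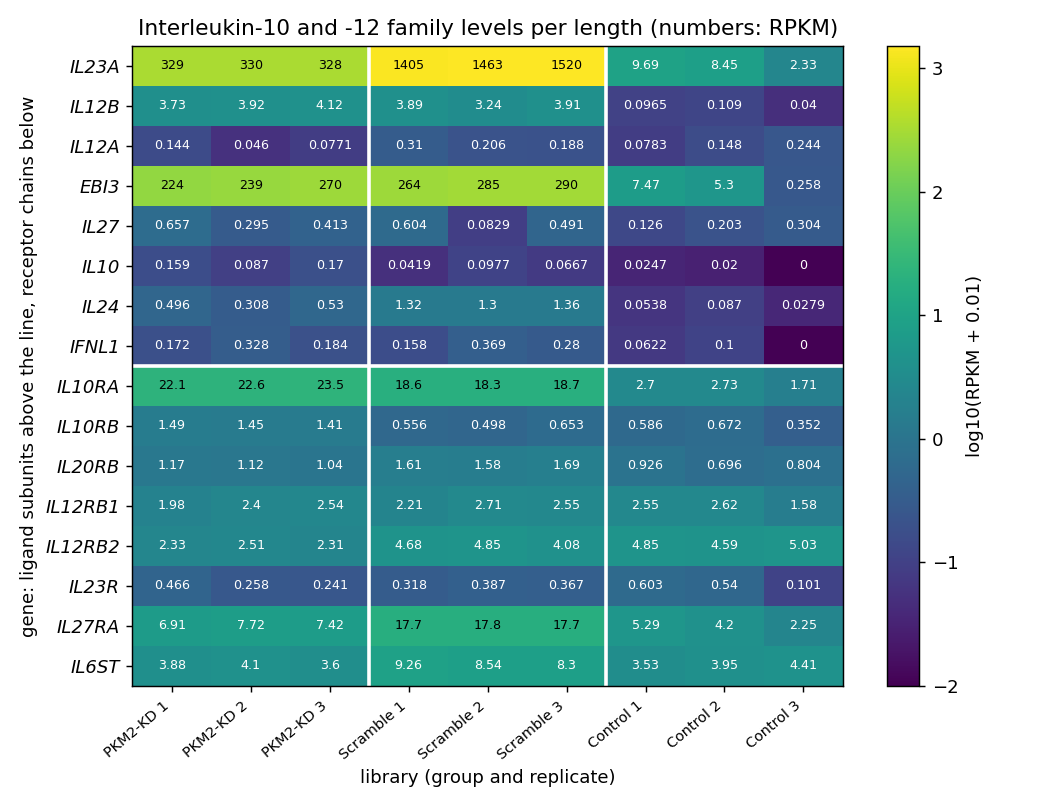
RPKM of 16 ligand and receptor genes of both families in each library, coloured by log10(RPKM + 0.01). IL23A (329 RPKM on average with PKM2-knockdown and 1463 with scramble ectosomes) and EBI3 (244 and 280) stand above their partner chains IL12B, IL12A and IL27, and IL10 is near 0 in all libraries.

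Kinases and STAT factors that these receptors use are given next. STAT3, the main factor downstream of the interleukin-10 receptor and also used by that of interleukin-23, averaged 175 CPM with PKM2-knockdown ectosomes, 323 CPM with scramble ectosomes and 120 CPM in controls. It was 1.84-fold lower with PKM2-knockdown than with scramble ectosomes (edgeR adjusted p = 0.000106). STAT4, the factor of the interleukin-12 receptor, had 15.4, 13.6 and 12.7 CPM with PKM2-knockdown ectosomes, 24.7, 23.01 and 24.1 CPM with scramble ectosomes and 0.852, 1.42 and 0.552 CPM in controls, with the groups apart. It rose 14.2-fold and 24.5-fold over control, with edgeR adjusted p = 3.76e-07 for PKM2-knockdown and 3.17e-08 for scramble ectosomes.

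TYK2, a kinase that binds IL10RB and IL12RB1, averaged 602 CPM with PKM2-knockdown ectosomes, 240 CPM with scramble ectosomes and 217 CPM in controls, and was 2.51-fold higher with the knockdown than with scramble ectosomes (edgeR adjusted p = 7.40e-07). JAK1, the kinase of IL10RA, averaged 86.1, 122 and 77.3 CPM in the same order and was lower with the knockdown than with scramble ectosomes (edgeR adjusted p = 0.000149). JAK2, the kinase of IL12RB2 and IL23R, averaged 43.5, 53.0 and 70.3 CPM, the last with control replicate 3 at 97.8 CPM and the other controls at 56.9 and 56.2 CPM. It fell with PKM2-knockdown ectosomes against control (log2 fold change -0.69, edgeR adjusted p = 0.00866). Between the ectosomes it passed the threshold only when control replicate 3 was left out (log2 fold change -0.28, edgeR adjusted p = 0.000618) or when the 6 ectosome libraries were fitted alone (edgeR adjusted p = 0.00105). For scramble ectosomes against control (edgeR adjusted p = 0.0690) it passed without control replicate 1 (edgeR adjusted p = 0.0247) or control replicate 2 (0.0229), with library totals (0.00928) and with no filter (0.0389).

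Of 12 genes known to respond to interleukin-10 in human monocytes or macrophages, 10 rose and 1 fell against control with each kind of ectosomes (median log2 fold change 1.97 with PKM2-knockdown and 2.12 with scramble ectosomes, against -0.01 for all tested rows in both). Of all tested rows, 27% rose and 26.7% fell with PKM2-knockdown ectosomes, and 34.6% rose and 33.2% fell with scramble ectosomes. Without control replicate 3 these shares were 29.1% and 28.6%, and 36.9% and 34.7%. The counts for the 12 genes stayed at 10 and 1. Other cytokines act on many of these genes too. TNFRSF1B, encoding a receptor for tumour necrosis factor, averaged 597 CPM with PKM2-knockdown ectosomes, 503 CPM with scramble ectosomes and 86.0 CPM in controls. IL4R, the interleukin-4 receptor chain, averaged 116, 171 and 28.3 CPM in the same order. HMOX1, encoding haem oxygenase 1, had 37.5, 145 and 1.85 CPM in the same order, and ETV3, a transcriptional repressor, 176, 196 and 46.8 CPM. FCGR1A encodes a high-affinity receptor for IgG and is also on the list of monocytic markers, and its level is uncertain because it has near-identical copies and 24.6% of its exon bases lie opposite other genes. It was the one that fell, at 41.2, 14.6 and 71.1 CPM.

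Between the ectosomes 2 of these 12 were higher and 4 lower with the knockdown (median -0.15, against 0.03 for all tested rows, of which 31.4% were higher and 30.3% lower). Without control replicate 3 the counts were 5 and 6, where 36.1% of all rows tested were higher and 35.4% lower. TNFRSF1B was then called higher with the knockdown (log2 fold change 0.24, edgeR adjusted p = 0.0016, and 0.162 in the main fit). ETV3 was then called lower (log2 fold change -0.15, edgeR adjusted p = 0.0247, and 0.104 in the main fit). CD163, a scavenger receptor of macrophages, had 2.45, 3.61 and 2.99 CPM with PKM2-knockdown ectosomes, 0.451, 0.842 and 0.719 CPM with scramble ectosomes and 0.266, 0.603 and 0.221 CPM in controls. It was 4.51-fold higher with the knockdown than with scramble ectosomes (edgeR adjusted p = 0.000206), and FCGR1A was 2.83-fold higher (edgeR adjusted p = 2.82e-07). NFIL3, a transcription factor, was 3.47-fold lower with the knockdown, at 17.8 against 61.6 CPM (edgeR adjusted p = 6.80e-06), and HMOX1 3.85-fold lower (edgeR adjusted p = 2.59e-05). The marker genes of monocytic cells were higher with the knockdown as well, and their part in these differences was not tested.

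Of 15 transcription factors known to act at IL10 or IL12B in myeloid cells, 12 rose and 2 fell with scramble ectosomes against control (median log2 fold change 1.63, where 34.6% of all tested rows rose and 33.2% fell), and 10 rose and 1 fell with PKM2-knockdown ectosomes against control (median 1.15, where 27% of all tested rows rose and 26.7% fell). The all-row median was -0.01 in both. Without control replicate 3 the counts were 12 and 1 with scramble and 11 and 2 with PKM2-knockdown ectosomes. Of all rows tested, 36.9% then rose and 34.7% fell with scramble ectosomes, and 29.1% and 28.6% with PKM2-knockdown ectosomes. IRF8, a factor that activates IL12B in myeloid cells, fell with both, at 162, 175 and 197 CPM with PKM2-knockdown ectosomes, 81.6, 83.8 and 83.8 CPM with scramble ectosomes and 779, 707 and 1186 CPM in controls. The groups did not overlap, and IRF8 had a log2 fold change of -2.32 with the knockdown (edgeR adjusted p = 1.88e-06) and of -3.42 with scramble ectosomes (edgeR adjusted p = 5.99e-08). IRF4 had 2.75, 2.63 and 1.94 CPM with PKM2-knockdown ectosomes, 7.58, 7.21 and 6.52 CPM with scramble ectosomes and 0.213, 0.129 and 0.0552 CPM in controls.

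Between the ectosomes 4 of the 15 were higher and 7 lower with the knockdown (median -0.25, against 0.03 for all tested rows, of which 31.4% were higher and 30.3% lower). Without control replicate 3 the counts were 5 and 8, where 36.1% of all rows tested were higher and 35.4% lower. IRF1, which overlaps other genes on the opposite strand over 22% of its exon bases, was 3.09-fold lower with the knockdown, at 35.8 against 111 CPM (edgeR adjusted p = 1.38e-07). ATF3, a stress-induced repressor, was 11.2-fold lower, at 11.6 against 130 CPM (edgeR adjusted p = 1.26e-06), and IRF4 2.90-fold lower (edgeR adjusted p = 6.76e-05). BATF3, a factor of dendritic cell development, had 4.17, 4.22 and 4.51 CPM with PKM2-knockdown ectosomes, 24.1, 24.0 and 26.4 CPM with scramble ectosomes and 12.5, 8.82 and 2.65 CPM in controls. It was 5.76-fold lower with PKM2-knockdown than with scramble ectosomes (edgeR adjusted p = 0.000215). For PKM2-knockdown ectosomes against control BATF3 missed the threshold (edgeR adjusted p = 0.0763). It passed there without control replicate 3 (log2 fold change -1.30, edgeR adjusted p = 2.9e-07) and with DESeq2 (adjusted p = 0.0313). BHLHE40, a repressor of IL10 in mouse T cells, averaged 295 CPM with PKM2-knockdown ectosomes, 258 CPM with scramble ectosomes and 36.9 CPM in controls, and rose with both against control (edgeR adjusted p = 9.28e-07 with PKM2-knockdown and 5.20e-07 with scramble ectosomes).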

How the data were processed

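The values the authors deposited are whole-number read counts, with rows named by gene symbol and 1 column for each of the 9 libraries, without normalization. Of the rows, 355 repeated an earlier symbol, and for each named gene the first row of its symbol was used. Per the submitters' processing notes, the tools were HISAT2 2.0.5 and featureCounts 1.5.0-p3 and the genome was GRCh38. No source used here gives the annotation, strand setting or filters, and reads of a gene and its antisense partner cannot be told apart. Library totals were 17744587 to 23864381 counts.

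Of 30000 rows, 18437 passed filterByExpr by group. They were fitted in edgeR 4.0.16 (R 4.3.3) with TMM scaling and a quasi-likelihood model of group alone, with 6 residual degrees of freedom. Tests were two-sided, and a call required p under 0.05 after Benjamini-Hochberg adjustment over the tested rows. The SE was derived from the log2 fold change and its F statistic. Levels are CPM on TMM-scaled totals. RPKM divides them by the exon union of GENCODE release 29 (GRCh38), in which 99.9% of row names were found. The model was tested on simulated data; the bound on recovery was restated by depth after 2-fold changes of low-count genes fell short of a first bound. Promoter motifs and the ratios between subunit genes were chosen after the sequences and values had been seen, and a first motif search that also held an SP1 motif and the bases after the start was not kept.

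The 6 genes and the gene lists were chosen with earlier results of these data known. Named genes are the 6 genes of the title group, the tested genes of the ligand, receptor and JAK-STAT lists, up to 4 genes with the smallest p of the other lists in each comparison, and the 3 genes most like each tested member over the libraries. ALB, TTR and HNF4A, which had too few reads to be tested, are named outside the rule as defining hepatocyte genes. One gene that this rule names, and the counts over its list, are not reported here. The alternatives were library totals alone, no filter, DESeq2 1.42.0, the 2 compared groups alone, replicate number as a block, and leaving out each library.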

Additional observations from a re-analysis of the deposited data

How the results depend on the processing

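Over 14 alternatives for each tested gene and comparison, no member's called difference changed direction or lost its call. Those that gained a call all concern PKM2-knockdown against scramble ectosomes. EBI3 passed when the 2 groups were fitted alone (log2 fold change -0.18) and without control replicate 3, its values with 1 library left out running from -0.27 to -0.13. IL10RA passed with library totals (0.47), with the 2 groups alone (0.31) and without control replicate 3, its values with 1 library left out running from 0.27 to 0.31. The 1 member called higher became 2 with library totals, with the 2 groups alone and without control replicate 3 (range 1 to 2 with 1 library left out). The 1 called lower became 2 with the 2 groups alone and without control replicate 3 (range 1 to 2). Of all rows tested, 31.4% were higher and 30.3% lower in the main fit, and 36.1% and 35.4% without control replicate 3. The cause of the gained calls was not tested. Library totals in place of TMM moved the share of tested rows with a positive log2 fold change to 61.95% from 50.88% between the ectosomes, to 40.2% from 51.05% for scramble ectosomes against control and to 47.18% from 50.26% for PKM2-knockdown ectosomes against control. Libraries with the same replicate number did not deviate together (correlations -0.09 to 0.07), so the numbers were not taken as pairs. With replicate number as a block, the counts called higher and lower stayed at 1 and 1 between the ectosomes, 5 and 0 with PKM2-knockdown ectosomes over control, and 4 and 0 with scramble ectosomes over control. The block fit gave IL23A between the ectosomes a log2 fold change of -2.16 (edgeR adjusted p = 0.000523). Depth limits IL10, IL12A and IFNL1, which had too few reads to be tested, and IL12B in controls.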
